A study of Mus musculus with 11 samples.

Results

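Iron-sulfur clusters are cofactors of iron and sulfide that are put together in mitochondria on a scaffold protein, relayed by carrier proteins and placed into enzymes of respiration, lipoic acid and heme synthesis. Part of the sulfur also leaves the mitochondrion for a separate cytosolic pathway, which serves DNA polymerases, DNA helicases and Irp1 itself. Irp1 and Irp2 bind iron-responsive elements of mRNAs of iron metabolism when iron is scarce. Irp1 loses that activity and becomes a cytosolic aconitase when it carries a cluster, whereas Irp2 carries none and is controlled by degradation.

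The 8 genes described here, taken by name out of the 24411 genes of the count table, encode the core of the mitochondrial pathway. They are Nfs1 and its small partner Lyrm4, the scaffold gene Iscu, the co-chaperone gene Hscb, the carrier gene Glrx5, and the late-acting genes Isca1, Isca2 and Nfu1. All 8 passed the filter on low counts in all 3 comparisons. Whole decapsulated testes, given no treatment, came from mice aged 20 weeks. Of the 11 samples, 4 were from WT C57Bl/6J mice and 4 from mice with a global knockout of Aco1, the gene of Irp1 (Irp1-/-). The remaining 3 were from mice with a global knockout of Ireb2, the gene of Irp2 (Irp2-/-). Whether each sample is a separate animal is not stated in the labels. Irp1-/- mice and their WT littermates came from matings of heterozygotes on a C57Bl/6J background. The background and breeding of the Irp2-/- mice were not given in the sources used here. Both knockouts affect every cell of the body, and the RNA is that of the whole organ, in which germ cells prevail. Fewer cells of a type and less RNA per cell therefore cannot be told apart.

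Total counts ranged from 15902473 to 22451417 per testis. Aco1 mRNA was lower in Irp1-/- than in WT testes (log2 fold change -0.45 ± 0.098 (SE), edgeR adjusted p = 0.0158) but remained present at 8.60 CPM against 11.8 CPM. This call was lost when any 1 of 4 testes was left out, Irp1-/- replicate 6 and WT replicates 2, 3 and 4, at log2 fold changes of -0.44 to -0.41 (adjusted p from 0.0520 to 0.0750, edgeR). Ireb2 mRNA had a log2 fold change of -1.16 ± 0.050 (SE) in Irp2-/- testes (edgeR adjusted p = 2.8e-13). Markers of germ, Sertoli, Leydig and peritubular cells were detected in every genotype, and the 5 epididymis markers summed to at most 0.251 CPM in any testis. In the count table the column of Irp1-/- replicate 6 is marked R and the remaining columns L, with no explanation given.

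The members lie on chromosomes 2, 5, 6, 12 and 13, none of them on chromosome 4 with Aco1 or chromosome 9 with Ireb2. At 7 of the 8, a gene on the opposite strand starts within 1000 bases of the member's own start. For 5 members that neighbour is protein coding, namely Romo1 at Nfs1, Fars2 at Lyrm4, Sart3 at Iscu, Chek2 at Hscb and Npc2 at Isca2. Of 21951 coding genes, 10.9% have such a coding neighbour. Glrx5 faces the long non-coding RNA gene Snhg10 and Isca1 the antisense gene Etohd2. This arrangement was noticed in the annotation after the expression values had been seen.

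RefSeq upstream windows of 250 bases (GRCm38.p6) were matched for 6 members, Nfs1, Lyrm4, Glrx5, Isca1, Isca2 and Nfu1. Not all of them lie upstream of the gene starts used here. The Nfu1 window (87009586 to 87009835) lies inside the gene, which starts at 87009236. The Lyrm4 window (36117358 to 36117607, minus strand) lies partly inside its gene, which starts at 36117526. Annotated exons cover the whole windows of Nfs1 and Lyrm4, so the letters found there stand in exons. Their median GC content was 64.4% with a median of 22 CpG dinucleotides, against 52.4% and 6 for all 32851 windows. The letters CCAAT, searched on both strands, stood in the windows of Glrx5, Isca1, Isca2 and Nfu1, 4 of 6, and in 33.8% of all windows. The ETS core CCGGAAG stood in those of Nfs1, Isca1 and Isca2, 3 of 6, and in 6.91% of all. The GC box GGGCGG stood in those of Lyrm4, Isca2 and Nfu1, 3 of 6, and in 32.7% of all. The parts of 3 windows that hold no annotated exon are shown 5′ to 3′ on the strand of the gene, because each holds CCAAT letters upstream of the start. That of Isca2 is the whole stretch between the member and its neighbour. That of Glrx5 is a part of the stretch between the starts of Glrx5 and Snhg10. Capitals mark the CCAAT and CCGGAAG letters on either strand. The Isca2 stretch lies at chr12:84773153-84773250 (plus strand) and fills the whole gap to Npc2. The Isca1 stretch is chr13:59769859-59769964 (minus strand), and the Glrx5 stretch, chr12:105032368-105032617 (plus strand), holds CCAAT letters at 4 places.
Isca2: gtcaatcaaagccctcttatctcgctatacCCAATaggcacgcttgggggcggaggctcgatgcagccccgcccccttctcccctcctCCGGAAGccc
Isca1: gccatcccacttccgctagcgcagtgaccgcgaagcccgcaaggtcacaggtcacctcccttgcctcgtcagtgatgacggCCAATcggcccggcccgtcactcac
Glrx5: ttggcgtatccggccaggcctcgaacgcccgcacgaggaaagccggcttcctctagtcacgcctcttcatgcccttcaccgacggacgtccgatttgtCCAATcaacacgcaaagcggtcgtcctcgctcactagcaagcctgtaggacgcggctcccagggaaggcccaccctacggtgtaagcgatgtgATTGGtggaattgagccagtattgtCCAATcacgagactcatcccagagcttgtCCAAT
The letters describe these windows only, and binding of a factor was not measured.

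No genotype difference passed the test for the sulfur-donating pair. Nfs1, the cysteine desulfurase that takes sulfur from cysteine (chromosome 2, 156123639 to 156144186, 13 exons in its longest transcript), had 34.2, 36.2, 35.8 and 36.7 CPM in the WT testes. It had 36.6, 34.6, 34.9 and 39.2 CPM in Irp1-/- and 36.9, 34.4 and 36.7 CPM in Irp2-/- testes. The groups overlapped, and only Irp1-/- replicate 7 lay above all the others. Against WT, Nfs1 differed by 1.26% in Irp1-/- (95% interval -6.25 to 9.36%, adjusted p = 0.936, edgeR) and by 1.07% in Irp2-/- testes (-7.06 to 9.93%, adjusted p = 0.972, edgeR).

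Lyrm4, also known as Isd11, encodes the small protein that stabilizes the desulfurase (chromosome 13, 35978395 to 36117526). Its level was 6.32, 5.42, 5.69 and 5.96 CPM in WT, 6.51, 5.41, 5.29 and 5.27 CPM in Irp1-/-, and 6.78, 5.67 and 6.02 CPM in Irp2-/- testes. Irp1-/- replicate 1 stood apart from the other 3 of its group, and the 3 genotypes overlapped. At 84 to 153 counts per testis, counting alone gives a coefficient of variation of 8.91 to 9.91%, close to the 6.57 to 10.6% observed within groups. The widest difference of Lyrm4, -9.08% in Irp1-/- against Irp2-/- testes, had an interval of -23.9 to 8.62% (adjusted p = 0.661, edgeR).

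The scaffold step was among the most precisely measured. Iscu, which encodes the protein on which the cluster is first built (chromosome 5, 113772748 to 113778288), had 58.4, 57.9, 57.1 and 61.1 CPM in WT testes. Irp1-/- testes held 58.8, 57.6, 55.7 and 61.5 CPM and Irp2-/- testes 61.5, 55.6 and 54.7 CPM. All 3 ranges shared most of their span. The difference from WT was -0.682% in Irp1-/- (95% interval -7.07 to 6.14%) and -1.97% in Irp2-/- testes (-9.53 to 6.21%).

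Hscb and Glrx5 act on the finished cluster. Hscb encodes the J-domain co-chaperone that, with the chaperone Hspa9, helps release the cluster from the scaffold (chromosome 5, 110829070 to 110839777). It measured 6.93, 5.60, 5.97 and 6.24 CPM in WT, 4.78, 6.76, 7.04 and 5.90 CPM in Irp1-/-, and 6.78, 5.11 and 4.97 CPM in Irp2-/- testes. Hscb varied the most within the knockout groups, with a coefficient of variation of 16.6% in Irp1-/- and 17.9% in Irp2-/- testes where counting alone gives 9.17 and 9.30%. In WT it was 9.05%, and the difference in spread was not tested. Against WT the change was -1.06% in Irp1-/- (95% interval -17.1 to 18.04%) and -8.60% in Irp2-/- testes. The latter interval, -0.41 to 0.15 on the log2 scale, was the widest of the 8 genes in that comparison.

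Glrx5 encodes the monothiol glutaredoxin that carries the cluster onward (chromosome 12, 105032688 to 105042906, 2 exons). The WT testes had 9.05, 8.53, 8.22 and 9.44 CPM, the Irp1-/- testes 8.87, 8.57, 9.09 and 9.80 CPM, and the Irp2-/- testes 9.79, 8.23 and 8.93 CPM. No genotype stood apart. Glrx5 differed from WT by 2.50% in Irp1-/- (95% interval -10.4 to 17.2%) and by 2.32% in Irp2-/- testes (-12.1 to 19.1%).

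For the late genes, too, no difference passed the test. Isca1, whose protein works with that of Isca2 and with Iba57 to make the larger type of cluster, had the most counts of the 8 genes (chromosome 13, 59755409 to 59769810). It had 176.6, 178.8, 172.7 and 179.8 CPM in WT, 166.6, 182.4, 164.4 and 176.3 CPM in Irp1-/-, and 173.3, 170.4 and 162.0 CPM in Irp2-/- testes. In Irp2-/- testes 2 of the 3 values lay below every WT value, and 1 lay among them. The change from WT was -2.78% in Irp1-/- (95% interval -8.26 to 3.02%) and -4.52% in Irp2-/- testes (-10.5 to 1.87%, adjusted p = 0.738, edgeR). The level of Isca1 itself is uncertain, because 71.2% of its 50-base words also occur in other annotated genes, above all AK157302, which is not a row of the count table. This share was 14.4% for Iscu, mostly with Gm16437, and 13.2% for Nfs1, mostly with Gm28036. For Nfu1 it was 6.70%, for Lyrm4 3.24%, and for Hscb, Glrx5 and Isca2 0%.

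Isca2 (chromosome 12, 84773251 to 84775088) had 34.1, 33.9, 31.3 and 31.8 CPM in WT testes, 30.6, 34.9, 30.5 and 33.0 CPM in Irp1-/- and 33.1, 28.4 and 30.5 CPM in Irp2-/- testes. Again 2 of the 3 Irp2-/- testes were below all WT testes. The change was -1.82% in Irp1-/- (95% interval -9.54 to 6.57%) and -6.11% in Irp2-/- testes (-14.5 to 3.07%, adjusted p = 0.761, edgeR). Nfu1, which hands clusters to client enzymes such as lipoic acid synthase (chromosome 6, 87009236 to 87028461), had 36.1, 30.5, 34.1 and 33.4 CPM in WT, 31.4, 33.6, 32.3 and 33.8 CPM in Irp1-/-, and 35.9, 34.3 and 32.4 CPM in Irp2-/- testes. WT replicates 1 and 2 enclosed every knockout value. Nfu1 differed from WT by -2.58% in Irp1-/- (95% interval -10.2 to 5.63%) and by 2.30% in Irp2-/- testes (-6.82 to 12.3%).

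**Figure D1:**
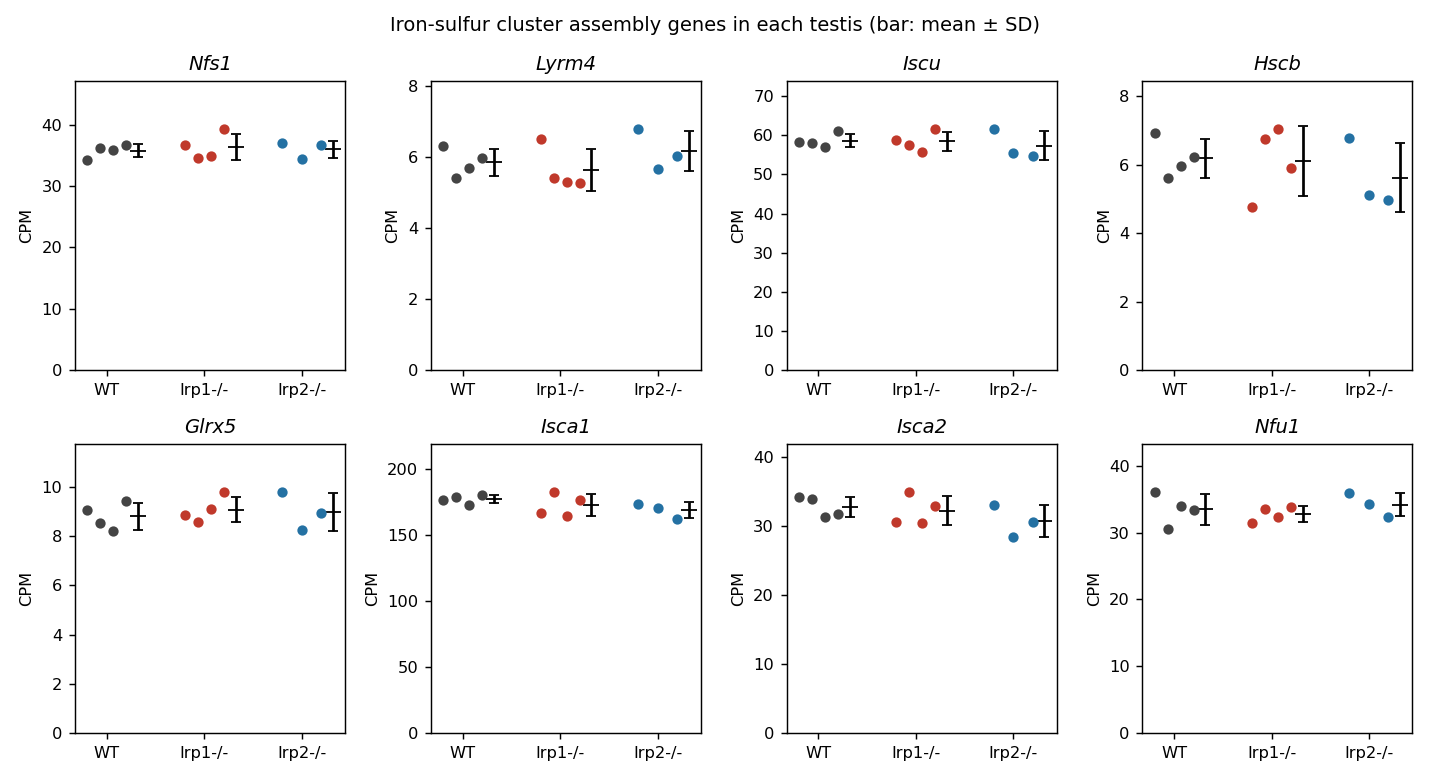
CPM of the 8 genes in each testis (points, replicates in order from left to right) with the mean ± SD per genotype (black bars), on axes that start at 0, for 4 WT, 4 Irp1-/- and 3 Irp2-/- samples. The genotypes overlap for every gene, for example Iscu at 57.1 to 61.1 CPM in WT and 55.7 to 61.5 CPM in Irp1-/- testes.

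Across the 3 comparisons, 0 of the 8 genes passed an adjusted p of 0.05. Over all genes tested the share that passed was 1.02% for Irp1-/- against WT (0.581% higher and 0.444% lower), 1.21% for Irp2-/- against WT (0.371% higher and 0.842% lower) and 4.69% for Irp1-/- against Irp2-/- testes (2.92% higher and 1.76% lower). By edgeR none of the 8 passed an unadjusted p of 0.05 either, against 12.1%, 9.42% and 16.3% of all genes, and DESeq2 called 0 members in each comparison. The fold change was above 0 for 2, 4 and 6 of the 8 members, and for 49.7%, 51.3% and 49.4% of all genes. Nor did the groups separate for any member, which they did for 6.59%, 9.31% and 15.1% of all genes. With 8 genes, a count of 0 lies near what these low shares give.

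The intervals state how large a change these samples leave room for. Against WT the 8 point estimates ran from -4.12 to 2.50% in Irp1-/- and from -8.60 to 5.71% in Irp2-/- testes. The 95% intervals of all 8 stayed between -18.8 and 18.04% in Irp1-/- and between -24.7 and 26.1% in Irp2-/- testes. Between the knockouts they stayed between -23.9 and 34.0%. The outer bounds belong to Lyrm4 and Hscb, which have the fewest counts. The median size of the log2 fold change was 0.031, 0.050 and 0.048 for the members, against 0.072, 0.071 and 0.088 for all genes tested, in the order of comparisons given above. A p that misses the threshold does not show equal levels, and the room left differs from gene to gene.

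**Figure D2:**
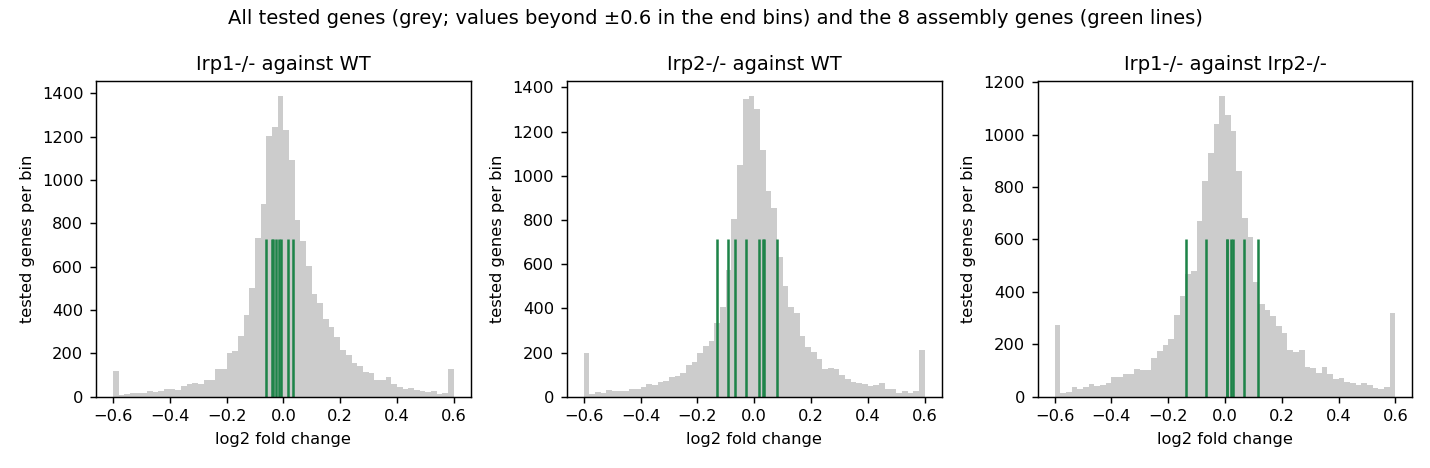
Histograms of the edgeR log2 fold change of all tested genes in bins of equal width (grey, values beyond the axis gathered in the end bins) and the values of the 8 assembly genes (green lines, their height without meaning), for the 3 comparisons. The members sit near 0, between -0.06 and 0.04 for Irp1-/- against WT.

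The members shared a direction in some testes. Irp2-/- replicate 1 was the highest of its group for 8 of 8 members, and for 34.9% of 16357 genes. The median deviation of its 8 members from the group mean was 0.11 on the log2 scale, against -0.00054 for all genes, while replicates 2 and 3 had medians of -0.08 and -0.04. This testis also had the deepest library of its group, with 22349732 counts against 19659548 and 18519415, and the part of depth was not tested. Without it the fold changes of all 8 members against WT were below 0, where 4 of 8 are above 0 with it. Their median moved from -0.01 to -0.06, and Isca2 reached an unadjusted p of 0.0338 (adjusted p = 0.371, edgeR). The median, close to 0, was 0.01 without Irp2-/- replicate 2 or without WT replicate 4. In the other groups WT replicates 1 and 4 were each highest for 4 members, as was Irp1-/- replicate 7.

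Levels were compared between genes only per length, as CPM per kilobase of exon in WT testes. Isca1 was the highest at 91.1 ± 1.63 (SD, n = 4), then Isca2 at 37.1 ± 1.65, Iscu at 30.8 ± 0.905, Nfu1 at 28.1 ± 1.94, Nfs1 at 14.9 ± 0.449, Hscb at 7.69 ± 0.696, Lyrm4 at 2.80 ± 0.184 and Glrx5 at 2.57 ± 0.158. Iscu and Nfu1 overlapped in this order, as did Lyrm4 and Glrx5, and every other pair of neighbours was apart in WT. The order was the same in both knockouts, and the ratio of the highest to the lowest was 35.4 in WT, 33.5 in Irp1-/- and 33.1 in Irp2-/- testes. With the median length of coding transcripts in place of all exons, a choice added after the data were seen, Iscu (52.5) passed Isca2 (52.2) and Glrx5 (4.74) passed Lyrm4 (2.80).

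Some pairs are given side by side because their proteins work as complexes. Per kilobase in WT, Nfs1 was 5.33 times Lyrm4, Iscu 2.06 times Nfs1 and Isca1 2.45 times Isca2. The same ratios were 5.64, 2.02 and 2.43 in Irp1-/- and 5.10, 1.99 and 2.50 in Irp2-/- testes. They depend on the length used, and with the median length of coding transcripts the WT ratios were 9.24, 2.03 and 1.75. These are ratios of mRNA, and protein was not measured here.

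**Figure D3:**
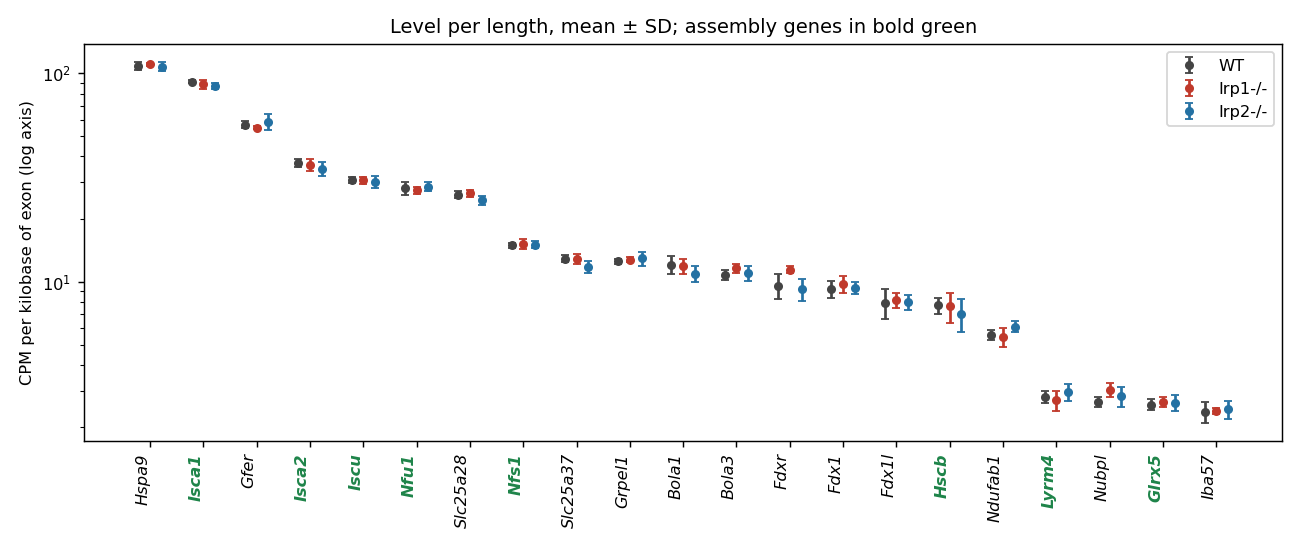
CPM per kilobase of exon (log axis) of the 8 assembly genes (bold green) and 13 of the 15 partner genes, ordered by the WT mean, as mean ± SD for the 3 genotypes. The members span from 91.1 for Isca1 to 2.57 for Glrx5 in WT, and the ranges of the genotypes overlap for each of them.

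A search over 14975 genes gave genes whose log2 CPM over the 11 testes was most like that of each member. Iscu ran most closely with Taf10, a subunit of general transcription complexes (Pearson's r = 0.96), and with the histone acetyltransferase gene Kat8 (0.95). Isca1 ran with Tmem56 (0.95) and with Gapdhs, the glycolytic enzyme of spermatids (0.95). Glrx5 ran with Chchd7 (0.92) and with Bola2 (0.90), whose protein works with a cytosolic glutaredoxin. Nfs1 ran with Megf6 (0.93) and Snhg7 (0.90), Lyrm4 with Tagln2 (0.92), and Isca2 with 1700019A02Rik (0.93) and Gm12191 (0.88). Hscb reached at most 0.87, with Map2k2 and then Samt2 (0.85), and Nfu1 at most 0.83, with Dnmt3b and then Nudt8 (0.81). The 11 points share genotype groups and library depth, so these values are a description. An r of at least 0.9 was reached by 16 genes for Iscu, 11 for Isca1 and 2 each for Lyrm4 and Glrx5. For Nfs1 and Isca2 it was 1 gene each, and for Hscb and Nfu1 it was 0. How many of the 14975 genes would reach it by chance was not tested. A rank correlation shared 1 of the 2 choices for Nfs1, Glrx5 and Isca1 and 0 for the others.

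Around the core stand 15 partners that supply electrons, iron, chaperones and export. In Irp1-/- against WT and in Irp2-/- against WT, 0 of 15 passed the test. Between the knockouts 1 of 15 did, Fdxr, against 4.69% of all genes. Fdxr encodes ferredoxin reductase, which passes electrons through ferredoxin both to cluster assembly and, in Leydig cells, to steroid synthesis. It had 22.9, 22.6, 20.97 and 22.7 CPM in Irp1-/- testes, 17.5, 15.9 and 20.3 CPM in Irp2-/- testes and 15.9, 17.1, 21.5 and 20.1 CPM in WT testes. Every Irp1-/- value lay above every Irp2-/- value, and WT overlapped with both. Irp1-/- exceeded Irp2-/- testes by 24.3% (95% interval 10.6 to 39.8%), which is 0.31 ± 0.081 (SE) on the log2 scale (edgeR adjusted p = 0.0267). Against WT the log2 fold change was 0.25 in Irp1-/- (adjusted p = 0.137, edgeR) and -0.06 in Irp2-/- testes (adjusted p = 0.947, edgeR).

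The Fdxr call was lost when any 1 of 5 libraries was left out, with little change of the log2 fold change in 4 of these cases. It was 0.30 (adjusted p = 0.0885, edgeR) without Irp1-/- replicate 1, 0.31 (0.0665) without Irp1-/- replicate 2, 0.30 (0.0515) without Irp1-/- replicate 7 and 0.30 (0.0659) without Irp2-/- replicate 1. Without Irp2-/- replicate 2 it was 0.24 (adjusted p = 0.188, edgeR). All 7 Leydig cell markers had a log2 fold change above 0 in Irp1-/- against Irp2-/- testes, as did 49.4% of all genes, and 2 of them passed the test, Hsd3b1 (0.68, adjusted p = 0.0170, edgeR) and Insl3 (0.27, adjusted p = 0.0425, edgeR). The 7 summed to 937 to 1138 CPM in Irp1-/-, 721 to 943 CPM in Irp2-/- and 699 to 983 CPM in WT testes, with none at 0. Of 7 Sertoli cell markers 5 were above 0 and 2 passed, both higher in Irp1-/- testes, Amh (0.86, adjusted p = 0.0366, edgeR) and Rhox5 (0.36, adjusted p = 0.0394, edgeR). Their sum was 189 to 208 CPM in Irp1-/-, 173 to 195 CPM in Irp2-/- and 172 to 185 CPM in WT testes, again with none at 0. Without Irp2-/- replicate 2 none of the 4 markers passed, at 0.65 for Hsd3b1, 0.16 for Insl3, 0.76 for Amh and 0.30 for Rhox5 (adjusted p 0.112 to 0.227, edgeR). Insl3 was also lost without Irp1-/- replicate 1, 2, 6 or 7 or Irp2-/- replicate 1 (adjusted p 0.0607 to 0.147, edgeR). Rhox5 was also lost without Irp1-/- replicate 1, 2 or 6 or Irp2-/- replicate 3 (0.0560 to 0.165). The same held for Amh without Irp1-/- replicate 1 or 7 or Irp2-/- replicate 1 (0.0600 to 0.166), and for Hsd3b1 without Irp1-/- replicate 6 (0.0805). In Irp1-/- against WT testes all 7 Leydig and all 7 Sertoli markers were above 0 too, as were 49.7% of all genes. Among them Hsd17b3, a Leydig marker, passed (0.37, adjusted p = 0.0232, edgeR), where 1.02% of all genes did. Hsd3b1 missed the threshold (0.41, adjusted p = 0.0570, edgeR). Within WT, replicates 1 and 2 lay below replicates 3 and 4 for all 7 Leydig markers. Examples are Cyp11a1 (34.5 and 29.0 against 84.3 and 75.3 CPM) and Cyp17a1 (95.4 and 91.8 against 238 and 191 CPM). Fdxr was split in the same way in WT (15.9 and 17.1 against 21.5 and 20.1 CPM), and the cause was not tested. In Irp2-/- against WT 5 Leydig and 4 Sertoli markers were above 0, as were 51.3% of all genes, and none passed. The part of either cell type in the Fdxr difference was not tested.

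**Figure D4:**
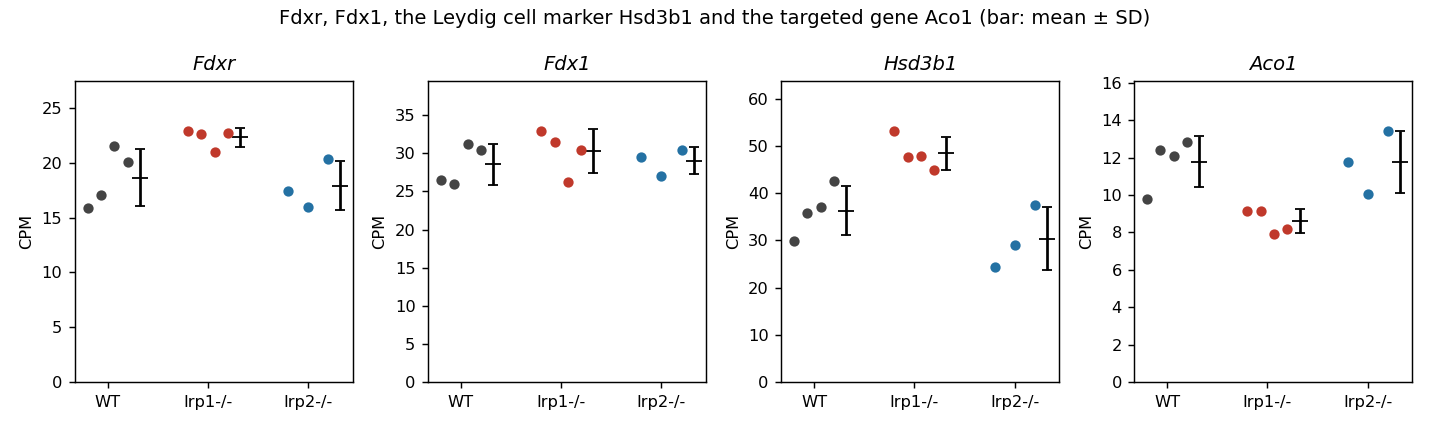
CPM in each testis (points, replicates in order from left to right) of Fdxr, its electron acceptor gene Fdx1, the Leydig cell marker Hsd3b1 and Aco1, with mean ± SD per genotype. Fdxr lies at 20.97 to 22.9 CPM in the 4 Irp1-/- testes and at 15.9 to 20.3 CPM in the 3 Irp2-/- testes, and WT spans 15.9 to 21.5 CPM.

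The other 12 partners given here had small differences that did not pass. The ferredoxin genes Fdx1 and Fdx1l had log2 fold changes of 0.08 and 0.04 in Irp1-/- and of 0.03 and 0.02 in Irp2-/- testes against WT. Ndufab1, the acyl carrier protein bound to the desulfurase complex, had -0.04 and 0.14. The chaperone gene Hspa9 had 0.02 and -0.0023, and its exchange factor gene Grpel1 0.02 and 0.05. The iron importer genes Slc25a28 and Slc25a37 had 0.02 and -0.0029 in Irp1-/- testes, and -0.09 and -0.12 in Irp2-/- testes, the latter for Slc25a37 with an adjusted p of 0.516 (edgeR). The sulfhydryl oxidase gene Gfer had -0.05 and 0.05. Of the late factors, Bola1 had -0.03 and -0.15, Bola3 0.10 and 0.03, Iba57 0.01 and 0.04 and Nubpl, which serves complex I, 0.20 and 0.09.

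**Figure D5:**
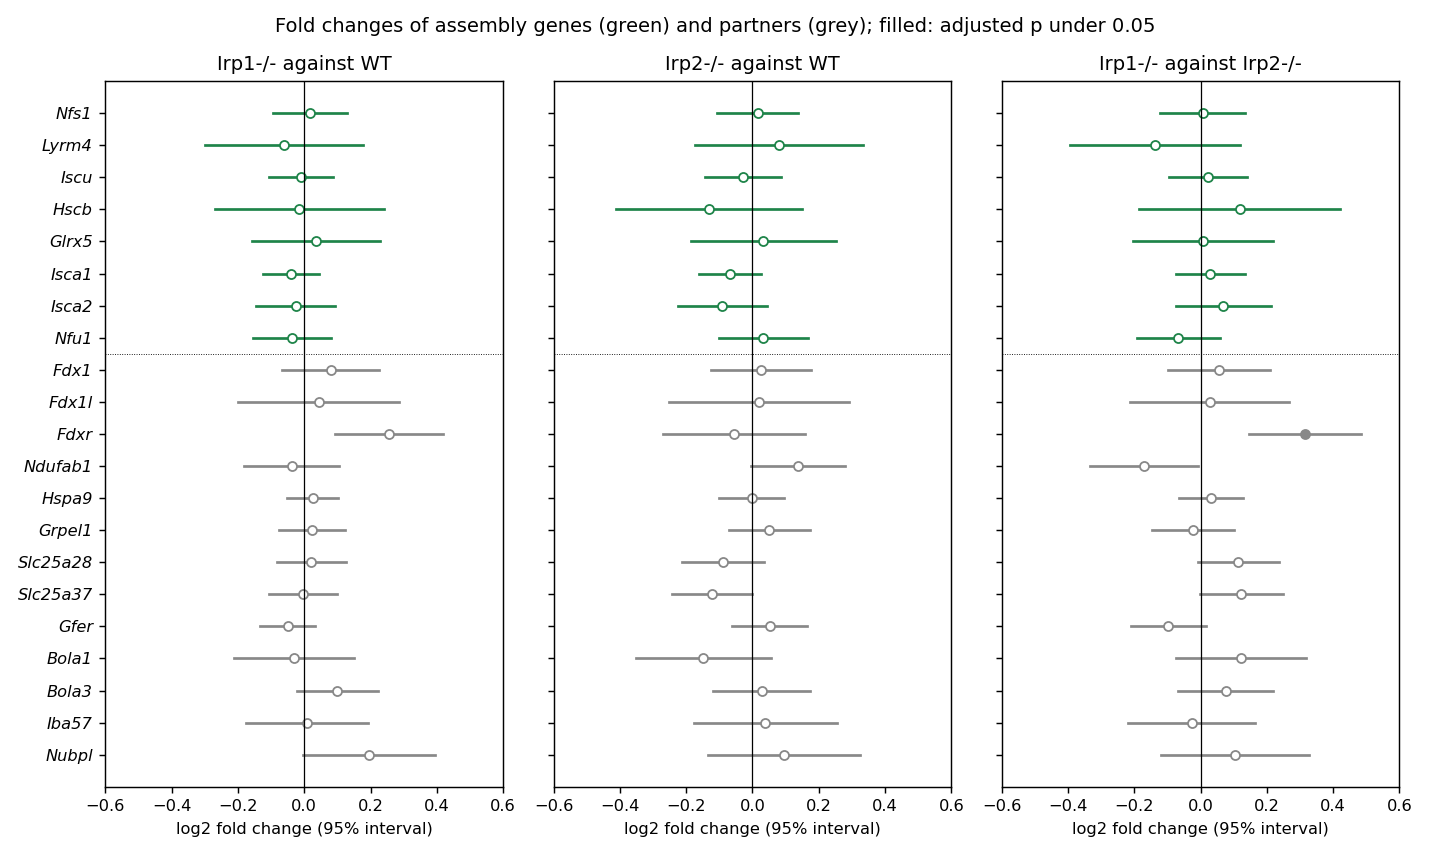
Log2 fold change with its 95% interval (edgeR) of the 8 assembly genes (green) and 13 of the 15 partners (grey, below the dotted line) in the 3 comparisons, with filled points for an adjusted p under 0.05. Fdxr in Irp1-/- against Irp2-/- testes, at 0.31, is the filled point, and the intervals of all 8 members cross 0.

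Outside the mitochondrial core, 0 of 11 genes of the cytosolic pathway passed in any comparison. The largest log2 fold changes among them were 0.08 for the scaffold gene Nubp2 in Irp1-/- against WT (adjusted p = 0.404, edgeR) and 0.12 and -0.11 for the reductase gene Ndor1 in Irp2-/- against WT and Irp1-/- against Irp2-/- testes. Of 37 client genes, whose proteins hold clusters, 1 passed in Irp1-/- against WT (1.02% of all genes did), the targeted gene Aco1, and 0 in Irp2-/- against WT (1.21%). Between the knockouts 2 passed (4.69% of all genes), both lower in Irp1-/- testes, Aco1 (-0.45, adjusted p = 0.0141, edgeR) and Pole (-0.21, adjusted p = 0.0178, edgeR), the catalytic subunit of DNA polymerase epsilon. Pole had 56.6, 60.1, 59.5 and 57.6 CPM in Irp1-/-, 67.9, 66.0 and 68.0 CPM in Irp2-/-, and 62.3, 60.03, 59.6 and 61.1 CPM in WT testes. The Irp2-/- testes thus lay above both other groups, though against WT the call was missed (0.15, adjusted p = 0.199, edgeR). The call of Pole between the knockouts was lost without Irp1-/- replicate 1 (-0.19, adjusted p = 0.0840, edgeR) and without Irp2-/- replicate 3 (-0.20, adjusted p = 0.0646, edgeR).

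Genes of mitochondrial import, energy conversion and protein folding without a role in clusters were set beside the members. Of 13 such genes 0 passed in any comparison, with medians of the log2 fold change of 0.01 in Irp1-/- and 0.01 in Irp2-/- against WT, and of -0.01 between the knockouts. The medians of the 8 members were -0.02, -0.01 and 0.01, and those of all genes tested -0.00079, 0.0033 and -0.0019. The largest value per comparison was 0.14 for the pore gene Vdac1 in Irp1-/- against WT, 0.16 for the chaperonin gene Hspe1 in Irp2-/- against WT and -0.14 for citrate synthase (Cs) between the knockouts, with adjusted p of 0.393, 0.761 and 0.161 (edgeR).

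None of the 7 opposite-strand neighbours passed the test in any comparison, where 1.02%, 1.21% and 4.69% of all genes did. Chek2, the checkpoint kinase gene beside Hscb, had the largest log2 fold change, 0.54 in Irp1-/- against WT (standard error 0.22, adjusted p = 0.288, edgeR). It had 1.68, 1.85, 1.70 and 1.82 CPM in Irp1-/- and 1.29, 0.934, 1.55 and 1.05 CPM in WT testes. These low values did not overlap, nor did the groups for 6.59% of all genes in that comparison. Hscb in the same comparison had -0.02. Npc2, a cholesterol carrier gene 99 bases from Isca2, had 0.09 where Isca2 had -0.03. The groups did not overlap for Npc2 either, at 47.9 to 49.6 CPM in Irp1-/- and 45.1 to 46.5 CPM in WT testes. Part of the exons of Nfs1, Lyrm4 and Isca1 overlaps with those of a neighbour on the opposite strand, and the strand setting of the counting was not given in the sources used here. On the same strand, Nfs1 shares 256 exonic bases with the coding gene Gm28036, and Isca1 shares 115 with the coding gene Gm49354.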

How the data were processed

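Polyadenylated RNA of 11 testes was sequenced as stranded paired-end reads of 50 bases. The authors deposited raw read counts per gene, which their nf-core workflow produced on mm10. The counter and its strand setting were not given in the sources used here. The submitters' processing notes name bcl2fastq 2.20.0.422 and DESeq2. The members, lists and tests were chosen with earlier results of these data known.

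Tests used edgeR 4.0.16 under R 4.3.3 (TMM, filterByExpr, robust quasi-likelihood test, the 2 genotypes compared in each fit, Benjamini-Hochberg over all genes tested). The standard error is the size of the log2 fold change over the root of F, 95% intervals from the t distribution with the moderated degrees of freedom. CPM used TMM over the 11 samples. The fits were tested on simulated data. The labels do not say that each sample is a separate animal, so p-values measure the spread between these samples, which may be technical. Positions, exon lengths and shared 50-base words were taken from GENCODE for GRCm38, which may differ from the authors' annotation. Likeness used log2(CPM + 1) and genes of mean CPM at least 1.

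Named were the 8 members, the partners, genes of the other lists with an adjusted p under 0.05 or else the largest change, Aco1, Ireb2 and the 2 genes most like each member. Some genes that the rule names are left out of the text and figures. Neighbours and the Leydig and Sertoli markers named were added after values were seen. Alternatives were RLE, other filters, DESeq2, a fit of all samples, a replicate block and leaving out each replicate. Total counts of 15902473 to 22451417 set the counting error, and the counting coefficients of variation cover that error only.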

Additional observations from a re-analysis of the deposited data

Results flagged for a closer look

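Among 46 groups of 4 samples checked for a testis apart from the rest, 2 were found, where chance gives about 2.3, 1 in 20. For Lyrm4, Irp1-/- replicate 1 had 6.51 CPM where the remaining Irp1-/- testes had 5.27 to 5.41 CPM. Fdxr in Irp1-/- replicate 6, at 20.97 CPM, lay below the others at 22.6 to 22.9 CPM. This is the sample whose column carries the letter R.

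The change from WT differed between Irp1-/- and Irp2-/- testes for 8 genes of the lists searched, tested as the contrast of the knockouts (edgeR). Searched were the 8 members, 15 partners, 11 cytosolic, 37 client and 13 mitochondrial housekeeping genes, 7 Leydig and 7 Sertoli markers, and Ireb2. Of all genes, 4.69% passed in that contrast. The difference, on the log2 scale, was 0.31 for Fdxr (adjusted p = 0.0267), -0.45 for Aco1 (adjusted p = 0.0141), -0.21 for Pole (adjusted p = 0.0178) and 1.14 for Ireb2 (adjusted p = 9.2e-12). Aco1 and Ireb2 are the targeted genes. Among the Leydig markers it was 0.68 for Hsd3b1 (adjusted p = 0.0170) and 0.27 for Insl3 (adjusted p = 0.0425), and among the Sertoli markers 0.86 for Amh (adjusted p = 0.0366) and 0.36 for Rhox5 (adjusted p = 0.0394). For 0 of the 8 assembly genes did the knockouts differ in this test, a count near what the share of 4.69% of all genes gives.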

How the results depend on the processing

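The count of 0 members called was the same under every alternative run in all 3 comparisons, with a lowest adjusted p of 0.554 for Irp1-/- against WT, 0.371 for Irp2-/- against WT and 0.374 between the knockouts. Replicate numbers did not pair the samples (correlations of same-numbered deviations -0.0012 to 0.063). With the replicate block, 439 genes were called in Irp1-/- against WT in place of 164, among them 2 partners (Fdxr, 0.46, and Fdx1, 0.29) and 0 clients, and 1 client between the knockouts in place of 2. In both comparisons the block contrast rests on replicates 1 and 2 alone, the only numbers that Irp1-/- shares with WT or Irp2-/-. The remaining testes each take a term of their own and add nothing to the contrast. Calls gained or lost with the block are therefore not a result of all testes. In WT both Fdxr and Fdx1 were lower in replicates 1 and 2 than in replicates 3 and 4. Leaving out 1 replicate each gave 55 to 216 genes for Irp1-/- against WT, 118 to 223 for Irp2-/- against WT and 414 to 763 between the knockouts. It gave 0 to 1 partners and 0 to 2 clients between the knockouts, 0 to 1 clients for Irp1-/- against WT, and 0 to 1 mitochondrial housekeeping genes between the knockouts. The client Aco1, at -0.45 in both comparisons, missed the threshold against WT when 1 of 4 testes was left out (-0.44 to -0.41, adjusted p 0.0520 to 0.0750, edgeR) and with the replicate block (-0.28, adjusted p = 0.314, edgeR). Against Irp2-/- it missed it without Irp2-/- replicate 3 (-0.35, adjusted p = 0.103, edgeR) and with the block (-0.26, adjusted p = 0.368, edgeR), as Pole did with the block (-0.20, adjusted p = 0.0989, edgeR). DESeq2 did not call Amh (0.86, adjusted p = 0.0993) or Rhox5 (0.37, adjusted p = 0.0696) between the knockouts, and without a filter Hsd3b1 missed it (0.68, adjusted p = 0.0503, edgeR). Some calls were gained in Irp1-/- against WT testes. Hsd3b1 passed with DESeq2 (0.41, adjusted p = 0.000248) and with at least 10 counts in every sample (0.42, adjusted p = 0.0360, edgeR). It also passed without WT replicate 1 (0.33, adjusted p = 0.00814, edgeR) or 4 (0.50, adjusted p = 0.000201, edgeR). Rhox5 passed without Irp1-/- replicate 7 (0.36, adjusted p = 0.0485, edgeR). The causes were not tested. Other length choices moved the level per kilobase of 5 members. Of the members, Lyrm4, Hscb and Glrx5 had the largest counting error, and the spread of Hscb in both knockouts exceeded that error.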
